A study of Canis lupus familiaris with 10 samples.

Results

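The BCL2 family genes described here are 10 regulators of mitochondrial cell death, measured in cultured tumor cells of 10 dogs with hemangiosarcoma, a malignant tumor of blood vessel-forming cells. The members were chosen by name, as every probe set of the array annotated to BCL2, BCL2L1, MCL1, BAX, BAK1, BCL2L11, BID, BAD, BBC3 or BNIP3. Of 42924 probe sets besides the controls, 14 were named for 9 of the 10 members. No probe set was named for BBC3 (PUMA, a death protein that p53 induces), and its level was not analysed here.

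Each dog gave 1 Canine_2 array of RNA from a splenic hemangiosarcoma culture, grown from frozen cells of the earliest passages at hand. The Golden Retriever group held 6 dogs (ChadG4, ChadG6, ChadG8, Frog, Journey and Tucker). DD1 was a male F1 cross of a Golden Retriever and a Great Pyrenees. The non-Golden Retriever group held 3 male dogs, ChadP9 (Portuguese Water Dog), Dal4 (Dalmatian) and Joey (Rottweiler). ChadG6, Frog and Journey were female, and Frog and Journey were distantly related. Each line came from 1 dog and was arrayed once, and 3 breeds stand for all other dogs, so a difference between lines and one between breeds cannot be told apart within that group.

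BCL2 family proteins decide whether the outer membrane of the mitochondrion is opened. The survival members BCL2, BCL2L1 (BCL-XL) and MCL1 bind and hold back the pore formers BAX and BAK1. The BH3-only members, among them BCL2L11 (BIM), BID, BAD and BBC3, sense stress and either block the survival proteins or switch on the pore formers. Open pores release cytochrome c, which starts the caspases through APAF1. In the dog assembly UU_Cfam_GSD_1.0, BCL2, BAX and BBC3 lie on chromosome 1, BAK1 on 12, BCL2L11 and MCL1 on 17, BAD on 18, BCL2L1 on 24, BID on 27 and BNIP3 on 28.

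The arrays of Dal4 and ChadG4 stood furthest from the rest, with a mean correlation of 0.905 and 0.911 with the other arrays, against 0.928 to 0.950 for the other 8. At 1 of 3 probe sets named for EIF2S3, a gene with copies on both sex chromosomes, the log2 signal of Dal4 was 2.95, that of the 3 females 3.08 to 3.33 and that of the other 6 males 10.15 to 10.60. Dal4, recorded as a male, thus lay near the females at this probe set, and the reason was not tested. The other EIF2S3 probe sets did not separate the sexes, and Dal4, at 12.56 and 11.47, lay below the females (12.98 to 13.23 and 12.01 to 12.12) and within the other males (12.22 to 13.18 and 10.89 to 12.19). Where leaving out Dal4 or another dog moved a breed difference of a gene by over 1.5 times, a value without such a dog is given beside it. Of 14 endothelial markers, each at 1 probe set, CDH5, KDR, TIE1, CLDN5, EGFL7 and MMRN2 lay above the 40th percentile on all 10 arrays. ERG lay above it on 9, while PECAM1, TEK and ESAM lay below it on all of them. That percentile was 5.02 to 5.16, and CDH5 lay close to it, at 5.15 to 5.41, with KDR at 6.51 to 8.25. A signal just above the percentile does not by itself show that a marker was expressed. Only 8 of the 14 endothelial markers passed the filter on low signal described below. Their mean log2 signal ranged from 5.61 to 6.61 in Golden Retriever cells and from 5.44 to 6.21 in non-Golden Retriever cells. PECAM1, VWF, TEK, ENG, ESAM and FLI1 did not pass, and this mean leaves them out. Of 9 fibroblast markers, 8 lay above the percentile on all 10 arrays, and all 9 passed the filter on low signal described below. LUM was 4.40 in Dal4 and 12.47 to 14.08 in Golden Retriever cells. The fibroblast list means were 10.66 to 11.51 in Golden Retriever cells and 9.97 to 11.40 in non-Golden Retriever cells. Those of 5 smooth muscle markers were 7.34 to 10.97 and 8.68 to 10.25. Of 8 blood and progenitor markers, 4 (CD34, CD14, CSF1R and CD68) lay above the percentile on all arrays, PROM1 on 6, and PTPRC, KIT and ITGAM on none. CSF1R lay close to the percentile, at 5.23 to 5.48, with CD34 at 5.53 to 5.95, CD68 at 5.57 to 6.98 and CD14 at 5.98 to 7.98. Of the B and T cell markers with a probe set, CD3E lay above the percentile on all arrays, at 6.19 to 6.61, and CD3D on 3, while CD79A and MS4A1 did on none. In cultures measured in bulk, fewer cells of a type and less RNA per cell cannot be told apart.

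A probe set was called measurable where its log2 signal exceeded the 40th percentile of the array, 5.02 to 5.16, on at least 3 of 10 arrays. By this filter 12 probe sets of 7 members were measurable. BCL2L11 and BNIP3 were below the percentile on 10 of 10 arrays. The survival genes and BAX, BID and BAD were above it on every array at each of their probe sets. Among the measurable members BAX varied most between dogs, and BAD, BCL2 and MCL1 varied least. No member passed the test between the breed groups.

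**Figure D1:**
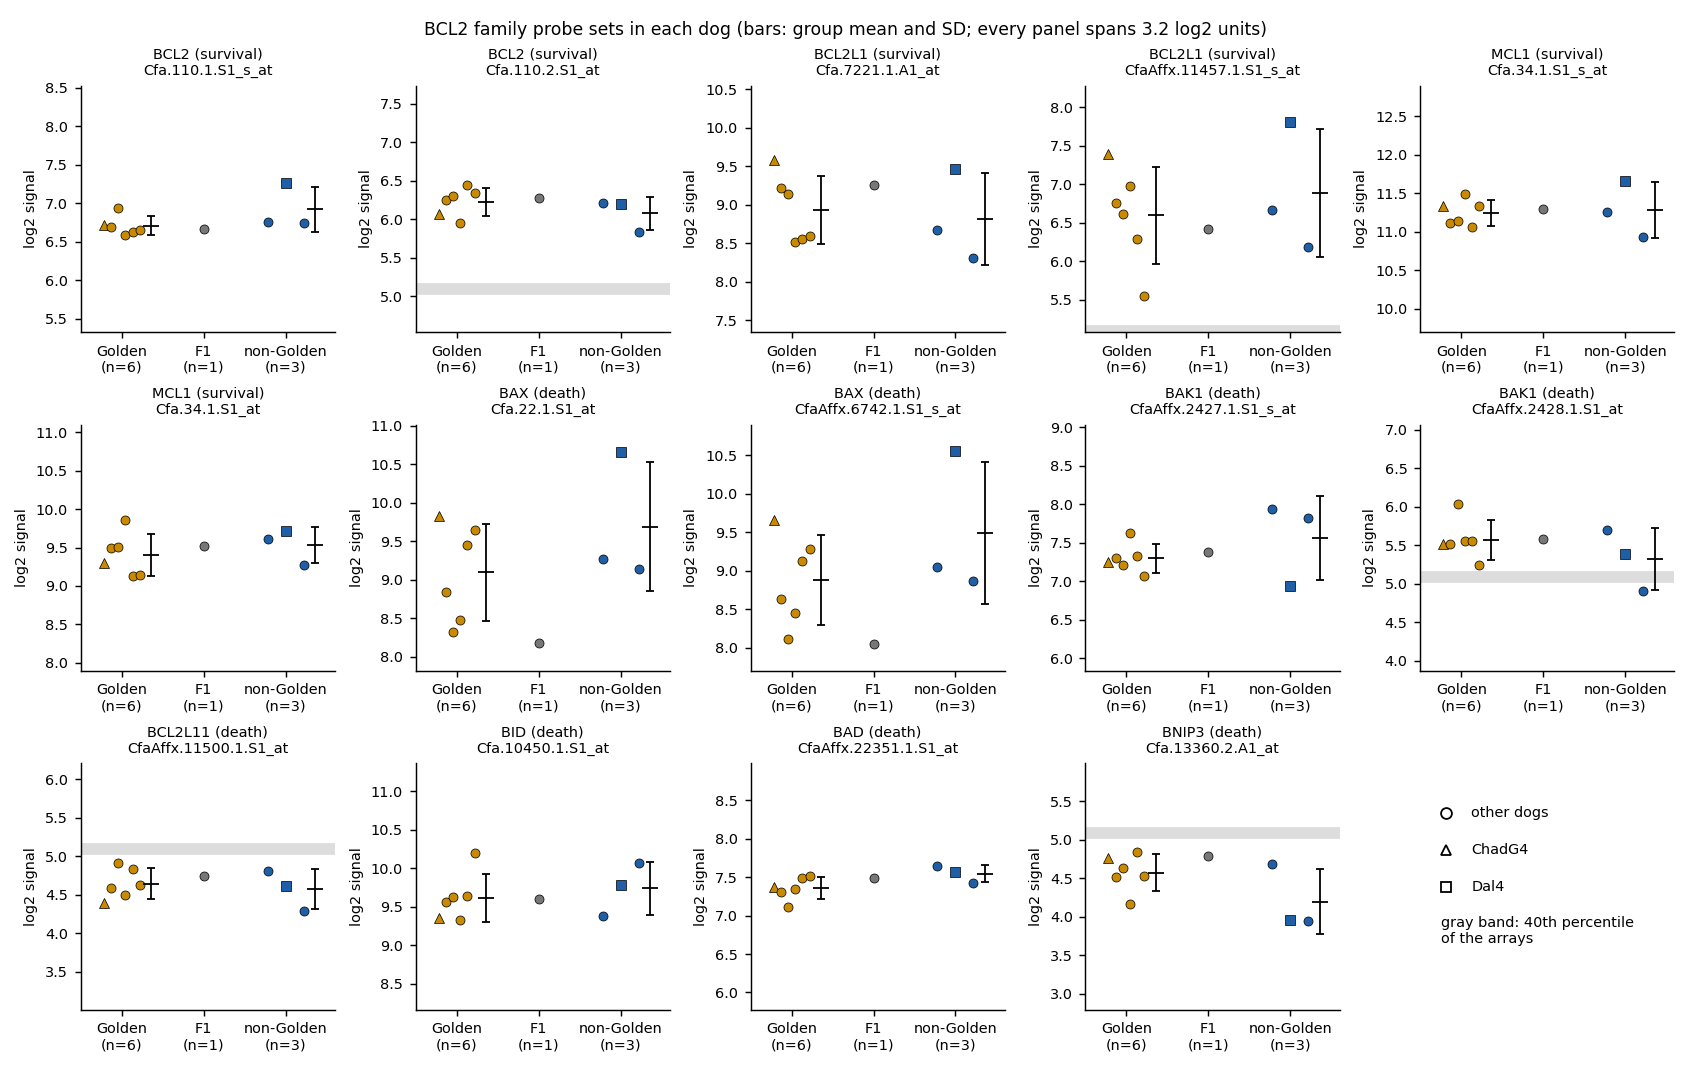
Log2 signal of each of the 14 member probe sets (vertical axis, every panel over an equal span) in the 6 Golden Retrievers, the F1 dog and the 3 non-Golden Retrievers, with points for dogs, bars for group mean and SD, triangles for ChadG4, squares for Dal4 and a gray band for the 40th percentile of the arrays. The array's identifier of each probe set stands above its panel, and BAX spreads over 2.48 and 2.51 log2 units with Dal4 at the top, while BCL2L11 and BNIP3 lie under the gray band in every dog.

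BCL2, the founding survival gene of the family, was nearly level across dogs. At the brighter of its probe sets, Golden Retriever cells had a lowest, median and highest log2 signal of 6.59, 6.68 and 6.94, with 6.67 in the F1 dog, against 6.76, 7.26 and 6.74 in ChadP9, Dal4 and Joey. Dal4 alone lay above all other dogs, and the groups overlapped. The difference, Golden Retriever minus non-Golden Retriever, was -0.22 (SE 0.155, adjusted p = 0.822), and -0.04 without Dal4. At the dimmer probe set the signals were 5.96 to 6.44 in Golden Retriever cells, 6.27 in F1 cells and 5.83 to 6.21 in non-Golden Retriever cells. There Dal4, at 6.20, lay inside the range of the others, and the difference was 0.15 (SE 0.155, adjusted p = 0.886), or 0.02 without Joey.

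BCL2L1, whose long product BCL-XL protects cells at the mitochondrion, varied more. At its brighter probe set the log2 signal was 9.59 in ChadG4, 9.22 in ChadG6, 9.14 in ChadG8, 8.51 in Frog, 8.55 in Journey and 8.60 in Tucker, with 9.25 in the F1 dog, against 8.67 in ChadP9, 9.47 in Dal4 and 8.31 in Joey. The cells thus lay in an upper set of 5 dogs, from 9.14 to 9.59, and a lower set of 5 dogs, from 8.31 to 8.67, and each set held Golden Retrievers and other dogs. At its dimmer probe set the signal was 7.40 in ChadG4, 6.76 in ChadG6, 6.61 in ChadG8, 6.98 in Frog, 6.29 in Journey and 5.55 in Tucker, with 6.42 in the F1 dog, against 6.67 in ChadP9, 7.81 in Dal4 and 6.19 in Joey. Dal4 and ChadG4 were the highest pair at both probe sets, but the gap between upper and lower dogs was not seen at the dimmer one. The breed difference was 0.12 (SE 0.317, 95% confidence interval -0.59 to 0.83, adjusted p = 0.966) at the brighter and -0.29 (SE 0.436, interval -1.27 to 0.69, adjusted p = 0.929) at the dimmer. Its direction turned at both without 1 dog, to -0.14 without Joey and -0.01 without ChadG4 at the brighter and to 0.17 without Dal4 at the dimmer. Without Dal4 the brighter gave 0.44, and without Joey the dimmer gave -0.64.

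MCL1, a survival protein that is made and degraded quickly, had a narrow spread. At the brighter probe set, Golden Retriever cells had 11.06, 11.23 and 11.50 as lowest, median and highest log2 signal, with 11.29 in F1 cells, against 11.26 in ChadP9, 11.66 in Dal4 and 10.94 in Joey. Non-Golden Retriever cells held both the highest and the lowest value, so the groups overlapped throughout. The difference was -0.04 (SE 0.179, interval -0.44 to 0.36, adjusted p = 0.981), or 0.15 without Dal4 and -0.21 without Joey. At the dimmer one it was -0.13 (SE 0.191, adjusted p = 0.930), or -0.03 without Dal4 and -0.26 without Joey, with Frog highest at 9.86 and Journey lowest at 9.13.

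BAX, a pore former that moves to mitochondria when cells are stressed, was the most variable member at its probe set of highest mean. At that probe set the log2 signal was 9.83 in ChadG4, 8.84 in ChadG6, 8.32 in ChadG8, 8.48 in Frog, 9.45 in Journey and 9.64 in Tucker, with 8.18 in the F1 dog, against 9.27 in ChadP9, 10.65 in Dal4 and 9.14 in Joey. Dal4 was highest, ChadG4, Tucker and Journey followed, and the F1 dog, ChadG8 and Frog were lowest. The range of 2.48 log2 units is 5.56-fold between the F1 dog and Dal4, and the SD over 10 arrays exceeded that of 90.8% of all tested probe sets. At the dimmer BAX probe set the range was 2.51 log2 units, from 8.04 in the F1 dog to 10.55 in Dal4, and the SD exceeded that of 90.6%. The order of the 10 dogs was identical at both BAX probe sets, with a Spearman rho of 1 and a Pearson r of 0.99.

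BAX averaged 9.09 ± 0.633 in Golden Retriever cells (SD, n = 6) and 9.69 ± 0.838 in non-Golden Retriever cells (SD, n = 3) at the brighter probe set. The difference was -0.59 (SE 0.438, interval -1.58 to 0.39, limma adjusted p = 0.823, two-sided exact permutation p = 0.274). It was -0.61 (SE 0.437, adjusted p = 0.821) at the dimmer. Without Dal4 the differences were -0.11 and -0.08, and without Joey they were -0.87 and -0.92. The breed difference in BAX was thus less than the spread between dogs, and most of its size rested on Dal4.

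By the rule for a member with a range of at least 1.5 log2 units, the genes whose signal was most like that of BAX over the 10 arrays were PRPF6, a splicing factor of the tri-snRNP (r = 0.95), RNF31, a ubiquitin ligase of the linear ubiquitin complex (r = 0.93), and CUEDC2 (r = 0.93). Their Spearman rho was 0.88, 0.88 and 0.90, and r was 0.94, 0.86 and 0.82 without ChadG4 and Dal4. PRPF6 spanned 1.04 log2 units, RNF31 0.58 and CUEDC2 1.21, so each varied less than BAX. These values are a description, since 11143 named genes were searched over arrays of 10 dogs.

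BAK1, the pore former that sits in the mitochondrial membrane at rest, was not ordered like BAX. At its brighter probe set the log2 signal was 7.06, 7.28 and 7.63 as lowest, median and highest in Golden Retriever cells, with 7.37 in the F1 dog, against 7.93 in ChadP9, 6.94 in Dal4 and 7.82 in Joey. Dal4 was lowest of all dogs for BAK1 and highest of all for BAX. ChadP9 and Joey lay above every Golden Retriever. The difference was -0.27 (SE 0.227, interval -0.78 to 0.24, adjusted p = 0.851), and it was -0.08 without ChadP9 and -0.14 without Joey. Without Dal4 it was -0.58 (SE 0.171, limma adjusted p = 0.999, unadjusted p = 0.00878). The dimmer BAK1 probe set lay near background, at 5.25 to 6.04 in Golden Retriever cells, 5.59 in F1 cells and 4.90 to 5.69 in non-Golden Retriever cells, and Joey fell below the 40th percentile there. Its difference ran the other way, 0.24 (SE 0.212, adjusted p = 0.854), or 0.03 without Joey and 0.43 without ChadP9.

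BID links death receptors to mitochondria, since caspase-8 cuts it into an active fragment. Its log2 signal was 9.35 in ChadG4, 9.57 in ChadG6, 9.63 in ChadG8, 9.33 in Frog, 9.64 in Journey and 10.19 in Tucker, with 9.59 in the F1 dog, against 9.38 in ChadP9, 9.78 in Dal4 and 10.06 in Joey. Tucker and Joey were highest, 1 dog of each group, and the groups overlapped. The difference was -0.12 (SE 0.222, adjusted p = 0.943), or 0.04 without Joey and -0.31 without ChadP9.

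BAD, a BH3-only protein that survival kinases keep inactive by phosphorylation, was the steadiest measurable member. Its log2 signal was 7.11, 7.36 and 7.52 as lowest, median and highest in Golden Retriever cells, with 7.49 in the F1 dog, against 7.64 in ChadP9, 7.57 in Dal4 and 7.42 in Joey. ChadP9 and Dal4 lay above every Golden Retriever, while Joey lay among them. The SD over 10 arrays exceeded that of 9.11% of all tested probe sets. The difference was -0.19 (SE 0.132, interval -0.48 to 0.11, adjusted p = 0.820), with the smallest exact permutation p of the members, 0.0952 (two-sided).

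BCL2L11 and BNIP3 had no signal that could be compared. BCL2L11, a BH3-only activator under FOXO control, had log2 signals of 4.40 to 4.92 in Golden Retriever cells, 4.74 in F1 cells and 4.29 to 4.81 in non-Golden Retriever cells. BNIP3, a mitochondrial protein that hypoxia induces in many cell types and that marks mitochondria for removal, had 4.16 to 4.84 in Golden Retriever cells, 4.79 in F1 cells and 3.95 to 4.68 in non-Golden Retriever cells. Each has 1 probe set on the array. A signal under the percentile of the array does not show that the transcript was absent, since a probe set can fail to bind the transcript made by these cells.

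Between the breed groups, 0 of the 12 tested member probe sets passed at an adjusted p under 0.05 by limma, against 0.00372% of all 26891 tested probe sets. At an unadjusted p under 0.05 the member count was also 0 by limma and 0 by the methods' t-test, against 6.32% of all tested by limma. The breed groups were free of overlap at 0 of the 12, against 2.45% of all tested. Of the 12 differences, 9 were below 0 and 3 above, and the median was -0.16, against -0.02 over all tested probe sets, of which 52.8% were below 0. In that split 5 members count with 2 probe sets each. Without Dal4, BCL2L1 at its dimmer probe set (0.17) and MCL1 at its brighter (0.15) turned above 0. BAX then came to -0.11 and -0.08, while BAK1 at its brighter probe set went to -0.58. Adjusted p-values of the members ran from 0.820 to 0.981, and exact permutation p-values (two-sided, 84 arrangements, smallest possible 0.0119) ran from 0.0952 to 0.833. The 95% confidence intervals all held 0 but differed in width between probe sets. The bound furthest from 0 was -1.59, for BAX at its dimmer probe set, whose interval ran up to 0.37. For BAD the interval was -0.48 to 0.11, and for MCL1 at its brighter probe set -0.44 to 0.36. These 9 dogs do not exclude a breed difference that lies inside the interval of its own probe set.

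**Figure D2:**
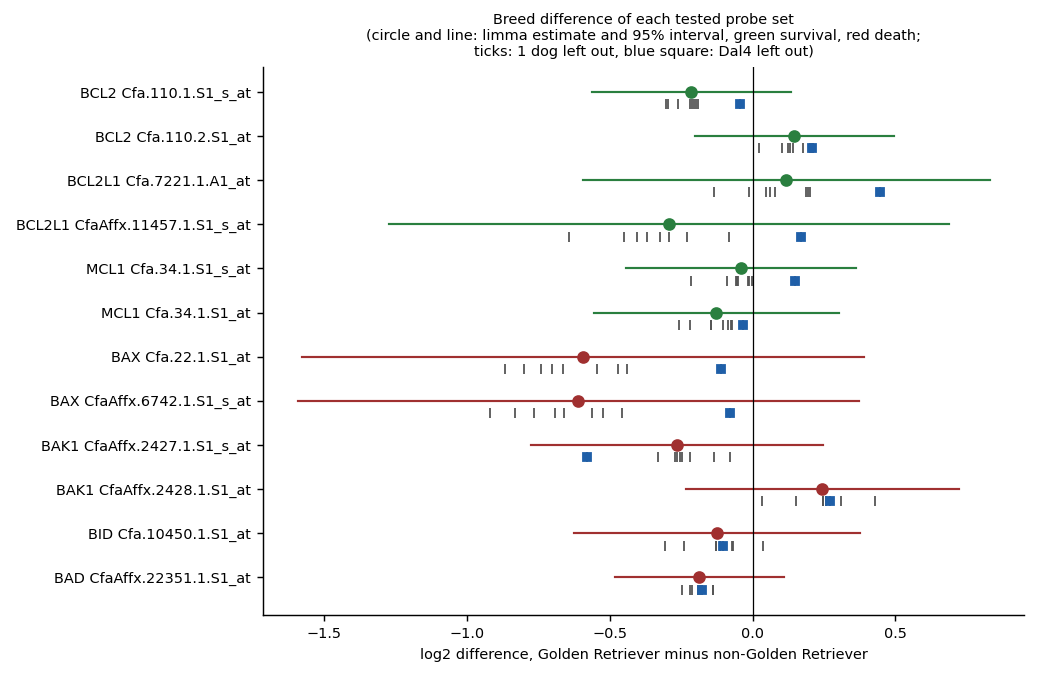
Differences of the 12 tested member probe sets (horizontal axis, log2 signal in Golden Retrievers minus that in non-Golden Retrievers), as limma estimate and 95% confidence interval in green for survival and red for death genes, with ticks for fits without 1 dog and a blue square for the fit without Dal4. Every interval crosses 0, and the BAX differences of -0.59 and -0.61 come to -0.11 and -0.08 without Dal4.

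For 5 members the array carries a pair of probe sets, which allowed the dogs' order to be checked within a gene. The correlation over 10 arrays was r = 0.99 for BAX, 0.66 for BCL2L1 and 0.61 for MCL1. It was 0.05 for BCL2 and -0.12 for BAK1. The BAX pattern was therefore read alike by both of its probe sets, while BCL2 and BAK1 had no order of dogs that their probe sets shared. Probe sets whose names end in s_at hold probes that may match other transcripts, and the part this plays in these correlations was not tested.

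**Figure D3:**
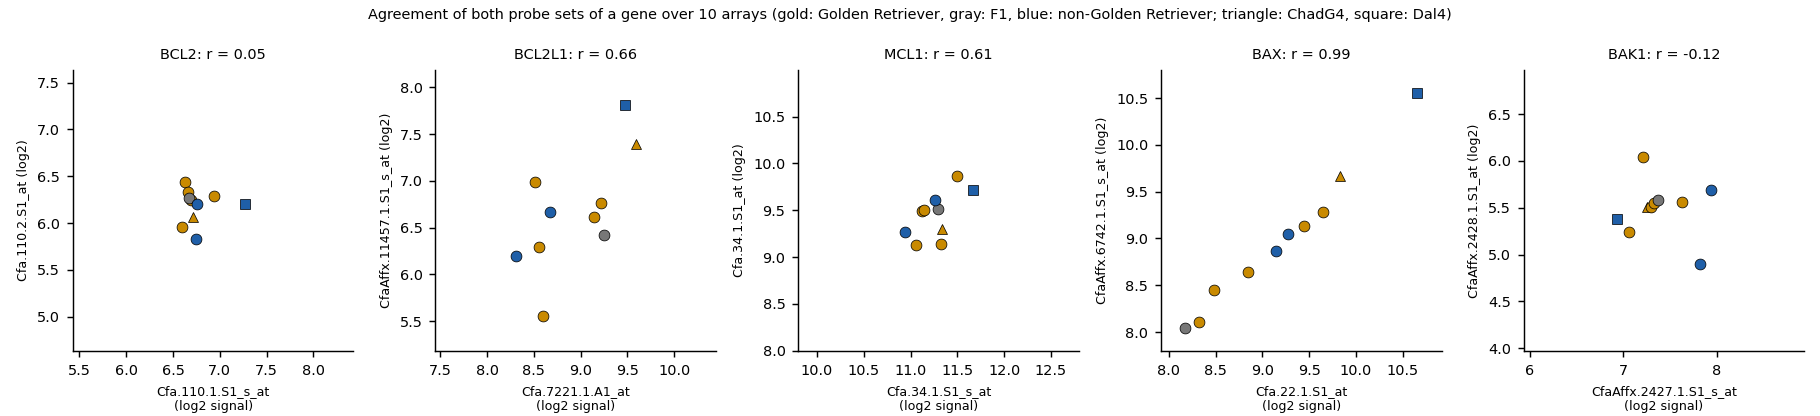
Log2 signal of the brighter probe set (horizontal axis) against the dimmer probe set (vertical axis) of each of 5 members in 10 dogs, over equal spans, with gold points for Golden Retrievers, gray for the F1 dog and blue for non-Golden Retrievers. BAX falls on a line (r = 0.99), whereas BCL2 (r = 0.05) and BAK1 (r = -0.12) form clouds.

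To set survival against death genes in each dog, the signal of each gene at its brightest measurable probe set was expressed as a deviation from its mean over the 10 arrays. The balance was the mean deviation of the 3 survival genes minus that of the 4 measurable death genes (BAX, BAK1, BID and BAD). It describes RNA levels of these genes relative to other dogs, and no protein or cell death was measured here. The balance was 0.19 in ChadG4, 0.18 in ChadG6, 0.43 in ChadG8, 0.09 in Frog, -0.31 in Journey and -0.32 in Tucker, with 0.34 in the F1 dog, against -0.24 in ChadP9, 0.15 in Dal4 and -0.53 in Joey. ChadG8 and the F1 dog leaned furthest toward survival genes and Joey furthest toward death genes. Golden Retrievers lay on both sides of 0, as did the other dogs.

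The balance averaged 0.04 ± 0.297 in Golden Retriever cells (SD, n = 6) and -0.20 ± 0.342 in non-Golden Retriever cells (SD, n = 3), a difference of 0.25 that was less than the SD of either group. The survival genes averaged -0.02 ± 0.170 in Golden Retriever cells and 0.02 ± 0.413 in non-Golden Retriever cells. The death genes averaged -0.07 ± 0.201 in Golden Retriever cells and 0.22 ± 0.0915 in non-Golden Retriever cells, so the difference in balance lay mainly on the death side. Tucker, at 0.19, had death genes within the range of the non-Golden Retrievers, 0.14 to 0.32. Without Joey the difference in balance was 0.09, without Dal4 it was 0.43, and with BAX left out, an alternative chosen after seeing the data, it was 0.15.

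Dal4 and the F1 dog both leaned toward survival genes, but their death genes lay on opposite sides of the mean. Dal4 had the highest mean deviation of all dogs for both sides, 0.48 for survival genes and 0.32 for death genes. In Dal4, BAX was 1.47 above its mean, BCL2L1 0.54, BCL2 0.50 and MCL1 0.40, while BAK1 was 0.45 below it. The F1 dog had survival genes at 0.09 and death genes at -0.25, with BAX 1.00 below its mean. Joey was low for survival genes, at -0.32, with BCL2L1 0.62 below its mean, and had BAK1 0.44 and BID 0.41 above theirs. At the dimmer BAK1 probe set, near background, Joey was instead the lowest dog, at 4.90.

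**Figure D4:**
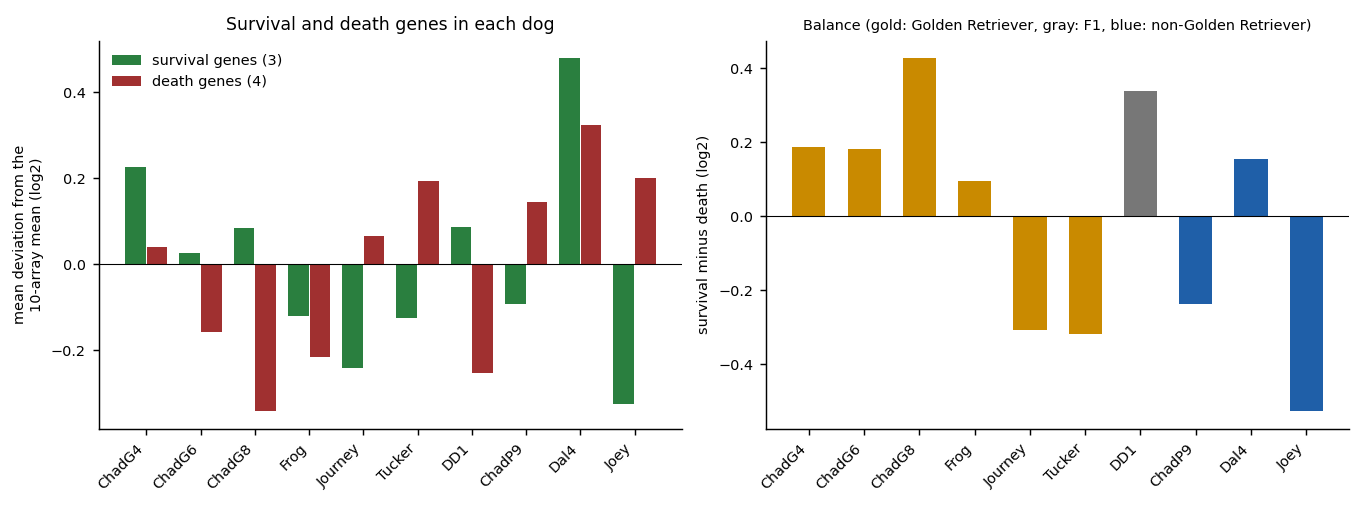
Left, mean deviation in log2 units of the 3 survival genes (green) and the 4 death genes (red) from their 10-array means in each dog; right, survival minus death, with gold bars for Golden Retrievers, gray for the F1 dog and blue for non-Golden Retrievers. The balance runs from -0.53 in Joey to 0.43 in ChadG8 and has both signs in both breed groups.

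Ratios of a survival gene to a pore former, taken as differences of these deviations, spanned more than the balance did. BCL2L1 over BAX spanned 2.26 log2 units, highest in the F1 dog at 1.33 and ChadG8 at 1.06, and lowest in Dal4 at -0.93 and Tucker at -0.80. MCL1 over BAX spanned 2.11, and BCL2 over BAX 2.01, with Dal4 lowest in each. MCL1 over BAK1 spanned 1.61 and put Dal4 highest, at 0.85, and Joey lowest, at -0.76. Dal4 thus stood at opposite ends depending on which pore former was used, with BAK1 taken at its brighter probe set. At the dimmer BAK1 probe set, which the ratio did not use, Dal4 was not the lowest dog, at 5.38. The breed difference was 0.71 for BCL2L1 over BAX, 0.55 for MCL1 over BAX, 0.38 for BCL2 over BAX and 0.23 for MCL1 over BAK1, none of them tested. The means were 0.09 ± 0.722 in Golden Retriever cells (SD, n = 6) and -0.62 ± 0.293 in non-Golden Retriever cells (SD, n = 3) for BCL2L1 over BAX, and the Golden Retrievers Tucker and Journey lay among the non-Golden Retrievers.

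Of 4 relations between members that were to be examined, those with BCL2L11, BNIP3 or BBC3 could not be, and MCL1 with BCL2L1 was measured. Over the 10 arrays r was 0.43 (permutation test, two-sided, p = 0.219) and rho was 0.47 (permutation test, p = 0.181). The r fell to -0.12 without Dal4 and Joey, the dogs farthest from the median of MCL1, and it was -0.16 within the 6 Golden Retrievers, so the relation rested on those dogs. After the values were seen, BAX was also set against BCL2L1, with r = 0.21 over 10 arrays and -0.63 without ChadG4 and Dal4. BAX with MCL1 gave 0.40, and -0.26 without those dogs. BAX with MDM2, which like BAX is a transcriptional target of p53, gave 0.65, and 0.62 without them. No p is given for relations chosen in this way.

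The mean log2 signal of 7 proliferation genes was highest in Dal4, at 10.02, the dog with the most BAX, followed by ChadG4 at 9.25 and Frog at 9.22, and it was lowest in Tucker, at 6.21. Of the others, ChadG4 and Tucker were high in BAX and Frog was low. The part of proliferation in the BAX levels was not tested. Between the breed groups, 2 of the 7 genes were higher and 5 lower, against 5203 and 5940 of all 11143 tested genes. AURKA (-0.51, SE 0.726), PCNA (-0.34, SE 0.465), MCM2 (0.32, SE 0.954) and CDK1 (0.19, SE 0.702) all failed the adjusted test, at p from 0.917 to 0.977. Without Dal4, AURKA was 0.27, PCNA 0.23, MCM2 1.39 and CDK1 1.04.

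Beyond the 10 members, 8 of 15 listed BCL2 family genes were measurable, and 4 were higher and 4 lower in Golden Retriever cells, with a median difference of 0.02. Of all 11143 tested genes, 5203 were higher and 5940 lower, with a median of -0.02, and this split stands beside each list below. Of the 8 family genes, 0 passed at an unadjusted p under 0.05 in either direction, against 1.68% of all tested genes higher and 4.46% lower. BCL2A1, a survival gene that NF-κB induces, is named for sharing the step of BCL2 and MCL1. Its log2 signal was 5.68 in ChadG4, 8.15 in ChadG6, 10.53 in ChadG8, 10.40 in Frog, 10.41 in Journey and 8.69 in Tucker, with 8.92 in the F1 dog, against 9.25 in ChadP9, 10.64 in Dal4 and 8.69 in Joey. ChadG4 lay far below every other dog, and the range of 4.96 log2 units was wider than that of any member. The difference was -0.55 (SE 1.04, adjusted p = 0.948), or 0.11 without ChadG4 and -0.97 without Joey.

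BCL2L13, a mitochondrial BCL2 relative linked to mitophagy, was 9.51, 9.57 and 9.82 as lowest, median and highest log2 signal in Golden Retriever cells, with 9.84 in the F1 dog, against 9.46 in ChadP9, 10.62 in Dal4 and 10.33 in Joey. Dal4 and Joey were high and ChadP9 was not. The difference was -0.51 (SE 0.232, adjusted p = 0.774), or -0.27 without Dal4 and -0.85 without ChadP9. BNIP3L (NIX), the closest relative of BNIP3 and a mitophagy receptor, was well above background, at 9.90, 11.37 and 11.69 in Golden Retriever cells, with 11.29 in the F1 dog, against 11.30 in ChadP9, 9.89 in Dal4 and 10.67 in Joey. ChadG4 and Dal4 were the lowest pair for BNIP3L, and its difference was 0.54 (SE 0.423, adjusted p = 0.832), or 0.17 without Dal4 and 0.88 without ChadP9. BNIP2 (-0.26, SE 0.233), BCL2L14 (0.15, SE 0.154) and the BH3-only gene BMF (0.06, SE 0.180) also failed the adjusted test. BNIP2 was -0.12 without ChadG4, and BMF was -0.11 without Joey and 0.25 without ChadP9.

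**Figure D5:**
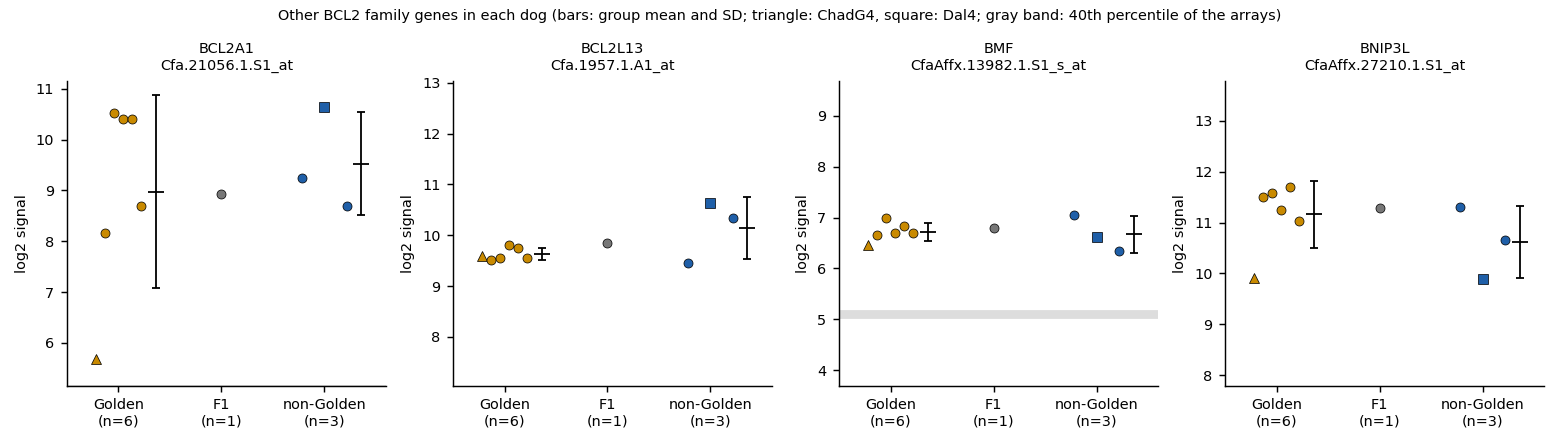
Log2 signal of 4 further BCL2 family genes (vertical axis, equal spans) in the 6 Golden Retrievers, the F1 dog and the 3 non-Golden Retrievers, with bars for group mean and SD, triangles for ChadG4 and squares for Dal4. BCL2A1 spans 4.96 log2 units with ChadG4 lowest at 5.68, and BNIP3L is lowest in ChadG4 and Dal4.

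Downstream of the pore, 16 of 18 mitochondrial and caspase genes were measurable, 6 higher and 10 lower in Golden Retriever cells, with a median of -0.14. At an unadjusted p under 0.05, 1 of the 16 was lower and 0 higher, against 4.46% and 1.68% of all tested genes. That gene was APAF1, the scaffold of the apoptosome, with 7.04, 7.34 and 7.70 as lowest, median and highest in Golden Retriever cells, against 7.94 in ChadP9, 7.77 in Dal4 and 7.62 in Joey. The difference was -0.42 (SE 0.161, adjusted p = 0.774). CYCS, cytochrome c itself, had -0.44 (SE 0.209, adjusted p = 0.776), CASP2 had 0.37 (SE 0.189, adjusted p = 0.776) and VDAC3, a channel of the outer membrane, had 0.15 (SE 0.170, adjusted p = 0.895). Without Dal4, CASP2 had 0.18 and VDAC3 had 0.055.

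On the death receptor route that feeds into BID, 9 of 11 genes were measurable, with 1 higher and 8 lower and a median of -0.16. At an unadjusted p under 0.05, 1 of the 9 was lower and 0 higher, against 4.46% and 1.68% of all tested genes. CASP8, the caspase that cuts BID, had a log2 signal of 6.70, 6.83 and 7.16 as lowest, median and highest in Golden Retriever cells, with 6.25 in the F1 dog, against 7.25 in ChadP9, 8.29 in Dal4 and 7.96 in Joey. The breed groups did not overlap, as at 2.45% of all tested probe sets, and the F1 dog lay below all purebred dogs. The difference was -0.96 (SE 0.221), with an adjusted p of 0.774 by limma, and ran from -1.25 without ChadP9 to -0.73 without Dal4. RIPK1, an adaptor kinase of the same route, had -0.37 (SE 0.184, adjusted p = 0.776). CFLAR, which blocks caspase-8, had 0.13 (SE 0.147, adjusted p = 0.892), and 0.028 without Dal4.

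Of 20 listed regulators of the members, 15 were measurable, 6 higher and 9 lower, with a median of -0.13, and 2 of the 15 were lower and 0 higher at an unadjusted p under 0.05, against 4.46% and 1.68% of all tested genes. These were JUN (-0.62, SE 0.259), a transcription factor of stress signaling, and YWHAB (-0.32, SE 0.139), a 14-3-3 protein of the kind that holds phosphorylated BAD, both at an adjusted p of 0.774. JUN was -0.39 without Joey, and YWHAB was -0.19 without Dal4. USP9X (0.26, SE 0.129), which removes ubiquitin from MCL1, and HUWE1 (0.29, SE 0.148), a ubiquitin ligase that targets MCL1, both had an adjusted p of 0.776, and USP9X was 0.16 without Dal4. MDM2, named for its relation to BAX above, had a difference of 0.14 (SE 0.388, adjusted p = 0.969), or -0.13 without ChadP9 and 0.31 without Dal4.

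All 14 hypoxia targets listed beside BNIP3 were measurable, although BNIP3 was not. Of these, 11 were higher and 3 lower in Golden Retriever cells, with a median of 0.45. Neither the split nor the median was taken without Dal4, which had the lowest list mean of all dogs, at 8.86. The list means of ChadP9, at 10.42, and Joey, at 10.14, lay within the Golden Retriever range, so the split may rest largely on 1 array. Of all 11143 tested genes, 5203 were higher and 5940 lower, with a median of -0.02. At an unadjusted p under 0.05, 0 of the 14 passed, against 1.68% of all tested genes higher and 4.46% lower. CA9, a carbonic anhydrase induced by HIF1, had log2 signals of 7.22, 8.22 and 10.24 as lowest, median and highest in Golden Retriever cells, with 9.76 in the F1 dog, against 6.23 in ChadP9, 5.65 in Dal4 and 8.56 in Joey. Its difference was 1.68 (SE 0.803, adjusted p = 0.776), or 1.10 without Dal4 and 2.56 without Joey. LDHA had 0.41 (SE 0.205, adjusted p = 0.776), or 0.20 without Joey, and ADM and VEGFA had -0.11 each (SE 0.286 and 0.405), which turned to 0.038 without Tucker and 0.30 without Joey. The list mean was 9.52 to 10.91 in Golden Retriever cells and 8.86 to 10.42 in non-Golden Retriever cells, with Dal4 lowest.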

How the data were processed

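Affymetrix Canine_2 arrays measured RNA of hemangiosarcoma cultures, 1 array for each of 10 dogs. The authors deposited RMA signals on the log2 scale, computed with the affy package. RMA corrects background, sets the arrays to a shared distribution and summarizes the probes of a set, so changes near background are compressed. Detection calls were not used here. With 111 control probe sets set aside, the test took in 26891 of 42924 probe sets, those that exceeded the 40th percentile of an array in 3 or more dogs. The annotation gave 29254 probe sets 1 gene, 439 several and 13231 none, and members were matched through probe sets with 1 gene. Differences were fitted with limma 3.58.1 in R 4.3.3 (6 Golden Retrievers against 3 non-Golden Retrievers, the F1 dog left out), with two-sided p-values adjusted by the Benjamini-Hochberg method over all tested probe sets. For single probe sets an exact permutation test was added, and correlations (scipy 1.17.1) were tested with 100000 permutations. The fit was tested on simulated data. Gene lists used 1 probe set a gene, the tested one of highest mean. From each list the 2 genes with the smallest p in each direction are named, with BCL2A1, BMF and MDM2 added for their role or relation to a member. Members and lists were chosen with earlier results of these data known. Each p of a breed difference sets that difference against the spread between dogs, with error of culture and array included. The number of arrays limits the precision, and signals of different probe sets are not comparable with each other. Breed groups came from the sample titles and sex from the study's record of the dogs. Alternatives were the methods' t-test, a trend and robust prior, median-centered arrays, no filter, variable probe sets only, males only, the F1 dog added to either group, and each dog left out.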

Additional observations from a re-analysis of the deposited data

Results flagged for a closer look

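Over 39 measures, the highest and lowest of the 6 Golden Retrievers were compared with the rest of the group. The measures were the 12 tested member probe sets, the balance and the other genes whose breed difference is given above. Cell type markers and the genes most like BAX were not among them. In 5 measures a dog's gap to the nearest other took more of the range than Dixon's 95% critical value allows. Chance gives about 1 such case in 20 groups. Among the members, ChadG8 stood above the other Golden Retrievers for BCL2 at its brighter probe set (6.94, the next dog at 6.72), and Tucker stood above them for BID (10.19, the next at 9.64). Beyond the members, ChadG4 was low for BNIP3L (9.90, the next at 11.04), Journey for CASP2 (8.10, the next at 8.54) and Tucker for LDHA (13.08, the next at 13.57).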

How the results depend on the processing

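No member probe set passed the adjusted test in any alternative run. In 8 alternatives besides leaving out a dog, 0 of 88 member differences turned in direction, and without 1 dog 5 of 108 did. The t-test, the trend and robust prior, no filter and variable probe sets only left each difference as it was, so none could turn. Median-centering moved all differences by an equal amount. The count over all tested probe sets, 1 as reported, was 2 by the methods' t-test and 0 with the F1 dog as a non-Golden Retriever, and without 1 dog it was 1 to 2, with 2 without Joey. The member count at an unadjusted p under 0.05 was 0 to 1 without 1 dog, with 1 (BAK1) without Dal4. No share over all tested probe sets is given for that fit, so this count has no background to be read against. Without 1 dog, the differences that turned ran from -0.14 to 0.44 and from -0.64 to 0.17 for the probe sets of BCL2L1, from -0.21 to 0.15 for MCL1 at its brighter probe set and from -0.31 to 0.036 for BID. Those of other genes that turned ran from -0.97 to 0.11 for BCL2A1, -0.11 to 0.25 for BMF, -0.13 to 0.31 for MDM2, -0.22 to 0.038 for ADM, -0.63 to 0.30 for VEGFA, -0.99 to 0.27 for AURKA, -0.76 to 0.23 for PCNA, -0.26 to 1.39 for MCM2 and -0.31 to 1.04 for CDK1, which was also -0.14 among males only. The cause of each was not tested. The difference in balance kept its sign in all alternatives run, at 0.09 to 0.43 without 1 dog and 0.07 with no filter. It was 0.16 with all tested probe sets of a gene averaged, and 0.40 without ChadG4 and Dal4, which was chosen after seeing the data. Median-centering cancels within the balance and BNIP3 was not part of it, so centering or leaving out BNIP3 could not change it. Of the 12 tested member probe sets, 4 were among the most variable, so that alternative covers only these. No paired analysis was possible because the groups hold different, unpaired dogs and the labels carry no replicate numbers. With 6 dogs against 3 and 1 array each, only large differences pass, and members near background have compressed differences.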
